A study of Mus musculus with 4 samples.

Results

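The collagen family was described across cells sorted from mouse hearts by a Hic1 or a PDGFRa reporter. Members were the genes whose symbol is Col, a type number, a and a chain number, with at least 20 unique molecular identifiers (UMIs) over the kept cells of all 4 libraries. Of 44 such symbols among 27998 genes, 41 were members, and Col10a1, Col6a4 and Col19a1, with 2, 6 and 11 UMIs, were not. By structural class, 11 members were fibrillar, 8 of 9 symbols network-forming, 5 of 6 beaded, and 8 of 9 fibril-associated with interrupted triple helices (FACIT). A further 4 were transmembrane, 2 multiplexin and 3 of other kinds. The first library held tdTomato+ cells of C57BL/6 (Hic1 CreERT2 tdTomato) mice, pooled from 3 undamaged hearts, and the second the same cells from 3 pooled hearts 7 days after ligation of the left anterior descending coronary artery (LAD). Citrine+ cells of C57BL/6 (Hic1 Citrine) mice, from 3 undamaged hearts that each carried a hashtag antibody, made the third. In the fourth were PDGFRa H2BGFP+ cells of mice given as C57BL/6 with the B6.129S4-Pdgfratm11(EGFP)Sor/J allele, from 4 hashed hearts, of which 2 were undamaged and 2 were ligated 7 days before. All mice carried a reporter: a Cre-driven label marks cells that expressed Hic1 when Cre was active and their descendants, while the H2BGFP protein, made from the Pdgfra locus, is stable and can outlast the gene's activity. The tdTomato hearts were pooled without marks, so they cannot be told apart. With 1 library per group there was no replicate check between libraries, and every interval is an exact 95% interval for counting error only.

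Collagens are triple helices of 3 chains. Fibrillar types I, III and V, made mainly by fibroblasts, build the fibres that carry load and form the scar after infarction. Type IV forms the sheet of basement membranes, type VIII short networks around vessels, and type VI beaded filaments close to cells. FACIT collagens sit on fibril surfaces, transmembrane collagens span the cell membrane, and multiplexins (types XV and XVIII) join basement membranes to the matrix. Chains are hydroxylated and folded in the endoplasmic reticulum, trimmed after export and crosslinked by lysyl oxidases.

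The kept cells numbered 2786, 4263, 10838 and 12567 in the order above, with medians of 3453, 3668, 8038.5 and 7729 UMIs per cell. Cell classes came from clusters made without the collagen genes and named by fixed markers, and cells of cycling clusters were classed one by one by their own markers. Fibroblast-like cells numbered 2428, 3136, 10610 and 12469, pericyte-like cells 186, 840 and 220 in the first 3 libraries, and smooth-muscle-like cells 159 and 287 in the tdTomato libraries. A cluster of 13 undamaged tdTomato cells was endothelial-like, 8 citrine cells were epicardial-like, and 98 PDGFRa cells stayed unnamed. Levels are given as CPM, a gene's UMIs per 1000000 UMIs of the cell class. They count captured 3' ends and are not scaled by gene length. Fibroblast-like cells bore their markers, with summed fibroblast markers of 84687, 42240, 57732 and 37021 CPM and macrophage markers of at most 7.45 CPM. Ptprc, which marks blood cells, was at 0 in every tdTomato class. Smooth-muscle-like cells carried pericyte markers as well, at 22814 and 21077 CPM beside 15927 and 16563 for their own list. The tdTomato libraries shared 8 cell barcodes and the citrine and PDGFRa libraries 35, while a tdTomato and a hashed library shared at most 2. The labels give 1 kit for all, but the barcode sets of these pairs differ, so a difference of kit cannot be told apart from one between tdTomato and hashed libraries.

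Collagen transcripts were a larger part of the RNA of fibroblast-like cells than of pericyte-like or smooth-muscle-like cells. Of all UMIs, 0.829% (0.823 to 0.835) were collagen in undamaged tdTomato fibroblast-like cells and 1.22% after ligation. The share was 1.00% in the citrine and 2.61% in the PDGFRa library. In pericyte-like cells it was 0.326% (0.306 to 0.346), 0.456% and 0.543% in the undamaged tdTomato, ligated tdTomato and citrine libraries. In smooth-muscle-like cells it was 0.0750% (0.0666 to 0.0840) and 0.157% (0.149 to 0.166). Fibroblast-like cells thus had the highest share in each of the 3 libraries that held another class, and smooth-muscle-like cells the lowest in both tdTomato libraries. Col1a1, Col1a2 and Col3a1 together gave 53.7%, 65.8%, 52.2% and 74.6% of fibroblast-like collagen UMIs.

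**Figure D1:**
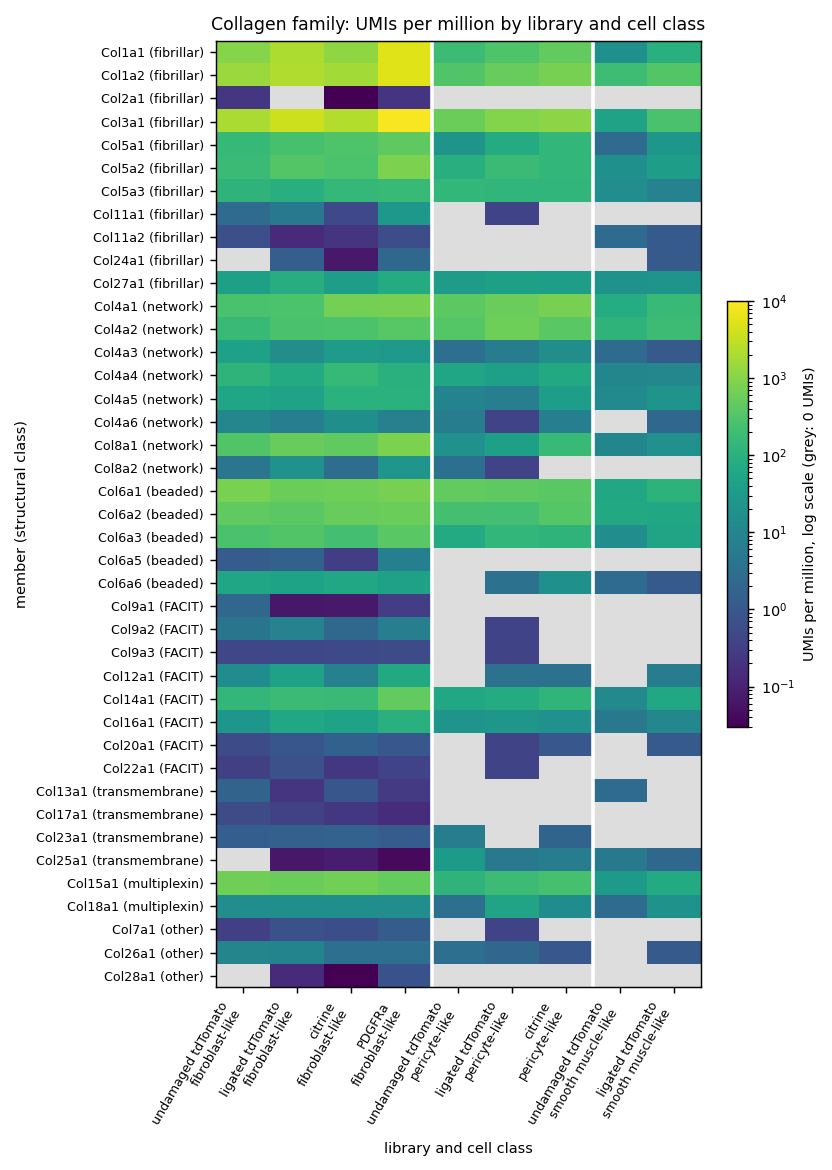
Level of each of the 41 collagen members (vertical axis, by structural class) in each library and cell class (horizontal axis), as CPM on a logarithmic colour scale, grey where no UMI was counted. The brightest cells are Col1a1, Col1a2 and Col3a1 in the 4 fibroblast-like columns, and the Col25a1 line is brightest in the pericyte-like columns.

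The mix of classes differed between cell classes. In undamaged tdTomato fibroblast-like cells 59.5% of collagen UMIs were fibrillar, 11.7% network, 18.6% beaded, 7.79% multiplexin and 2.19% FACIT. In pericyte-like cells of that library fibrillar members held 42.1% (39.1 to 45.2) and network members 26.5% (23.8 to 29.3). Smooth-muscle-like cells were similar, at 42.3% (36.6 to 48.2) and 30.7% (25.5 to 36.3). In the 13 endothelial-like cells 23 of 27 collagen UMIs were of network members. After ligation the fibrillar part of fibroblast-like cells was 72.0%, network 9.88%, beaded 10.8% and multiplexin 4.83%. In the PDGFRa library the fibrillar part was 80.4%.

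Among fibrillar members, Col3a1 was the most abundant in all 4 fibroblast-like populations, at 1979, 3758, 2298 and 8618 CPM in the order undamaged tdTomato, ligated tdTomato, citrine and PDGFRa. The type I chains Col1a1 and Col1a2 stood at 990 and 1483 CPM in undamaged tdTomato, 2079 and 2225 after ligation, 1201 and 1731 in citrine, and 5404 and 5425 in PDGFRa cells. The ligated tdTomato and PDGFRa libraries, which contain cells of ligated hearts, were the higher pair for all 3 genes. The PDGFRa library also differs from the others in reporter, and from the tdTomato libraries in depth and barcode set. Between libraries these cannot be told apart from ligation. Type V, which seeds fibrils and sets their width, was less abundant, with Col5a1 at 150, 244, 294 and 423 CPM and Col5a2 at 173, 341, 275 and 810 CPM. Col5a3 was at 115, 90.1, 146 and 165 CPM. Col27a1 was at 40.9, 81.1, 38.1 and 73.9 CPM, and Col11a1, a chain known from cartilage fibrils, at 2.53, 5.02, 0.503 and 26.1 CPM. The other 3 fibrillar members, Col2a1, Col11a2 and Col24a1, stayed under 3 CPM in all 4.

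Promoter sequences from RefSeq (build GRCm38.p6) were matched for 32 of the 41 members, and up to 250 bases before the start site were searched on both strands. Of these 32 genes, 12 held CCAAT (37.5%), 20 held GGGCGG (62.5%) and 4 held TATAAA (12.5%). Among 32851 promoters the shares were 33.8%, 32.7% and 12.4%. The member shares count genes, while the others count promoters, and a gene may have several promoters. Because the units differ, no excess of a motif among members can be read from these shares. The Col3a1 promoter is shown since Col3a1 was the most abundant member. It holds TATAAA, marked in capitals, and neither other motif.
Col3a1, chr1:45311288-45311537, plus strand: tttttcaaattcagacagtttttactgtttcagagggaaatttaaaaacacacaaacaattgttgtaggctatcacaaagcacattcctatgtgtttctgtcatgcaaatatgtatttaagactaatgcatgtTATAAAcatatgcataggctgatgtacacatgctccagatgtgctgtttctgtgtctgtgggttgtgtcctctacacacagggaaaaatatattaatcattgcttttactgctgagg

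Among network members, Col8a1 and the type IV chains Col4a1 and Col4a2 led in fibroblast-like cells. Col8a1 was at 313, 511, 452 and 831 CPM, Col4a1 at 265, 275, 685 and 754 CPM, and Col4a2 at 165, 264, 274 and 366 CPM. Col4a1 was more than 2-fold higher in both hashed libraries, which also differ from the others in reporter, depth and barcode set, and these cannot be told apart. Col4a3 and Col4a4, the chains of the kidney and lung type of basement membrane, were at 42.6, 16, 32.2 and 29.7 CPM and at 119, 71.8, 149 and 94.0 CPM. Their usual partner Col4a5 was at 51.8, 46.5, 102 and 101 CPM, and Col4a6 at 10.8, 7.43, 17 and 7.73 CPM. Col8a2, the second type VIII chain, was at 4.40, 18.5, 2.81 and 22.8 CPM. It was higher in both libraries with ligated hearts, with the same limit as for Col3a1. The Col8a2 promoter is shown because this member had the widest ratio among the 29 compared between the tdTomato fibroblast-like cells. It holds 4 matches to GGGCGG or its complement, marked in capitals, of which the last pair overlap. Its printed stretch ends at the annotated gene start.
Col8a2, chr4:126286544-126286792, plus strand: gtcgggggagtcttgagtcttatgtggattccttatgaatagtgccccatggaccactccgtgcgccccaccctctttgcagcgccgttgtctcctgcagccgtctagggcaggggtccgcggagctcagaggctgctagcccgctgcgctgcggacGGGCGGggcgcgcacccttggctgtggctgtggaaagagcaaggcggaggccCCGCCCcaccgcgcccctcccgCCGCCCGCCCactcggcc
Col4a3 and Col4a4 lie head to head on chromosome 1, and the nearest annotated starts of the pair are 72 bases apart. The 71 bases between them are shown because both genes were lower after ligation. None of the 3 motifs is in this stretch, so no letter is in capitals.
Col4a3/Col4a4, chr1:82586850-82586920, plus strand: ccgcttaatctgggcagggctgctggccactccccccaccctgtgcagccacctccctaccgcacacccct
The annotated starts of Col4a1 and Col4a2 are 21 bases apart, and the genes overlap there and run away from each other.

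The 3 main chains of beaded type VI stayed within 2-fold across libraries. In fibroblast-like cells Col6a1 was at 785, 584, 610 and 745 CPM, Col6a2 at 451, 377, 508 and 566 CPM, and Col6a3 at 254, 315, 221 and 378 CPM. Col6a6 was at 53.7, 48.6, 57.1 and 42.7 CPM, and Col6a5 at 1.21, 1.58, 0.314 and 7.15 CPM. Among FACIT members Col14a1 was at 136, 174, 165 and 480 CPM, Col16a1 at 24, 57.4, 47.7 and 95.9 CPM, and Col12a1, a collagen of tendon and other loaded tissue, at 14.9, 42.4, 7.62 and 66.5 CPM. Col12a1 was low in citrine cells, which came from undamaged hearts only, and high in PDGFRa cells, with the same limit as for Col3a1. Col9a2 was at 4.18, 8.39, 2.22 and 6.88 CPM, and the other 4 FACIT members stayed under 2 CPM. The multiplexin Col15a1 was at 630, 575, 678 and 503 CPM, a narrow range, and Col18a1, the source of endostatin, at 15.6, 16.7, 17.2 and 15.4 CPM. All 4 transmembrane members were under 2 CPM in fibroblast-like cells, with Col23a1 at 1.32, 1.51, 1.64 and 1.21 CPM and Col13a1 at 1.76, 0.206, 0.912 and 0.261 CPM. Col26a1 was at 9.80, 9.50, 3.16 and 3.08 CPM, about 3-fold higher in both tdTomato libraries, with the same limit as for Col4a1. Col7a1, of the anchoring fibrils of skin, and Col28a1 stayed under 2 CPM.

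Pericyte-like cells had less of most collagens than fibroblast-like cells of the same library, with the type IV chains Col4a1 and Col4a2 as the main exceptions in the tdTomato libraries. Members with at least 20 UMIs in the compared sums and at least 3 expected in the smaller sum were compared, and a member was called past 2-fold. In undamaged tdTomato 1 of 24 was higher in pericyte-like cells, against a background of 13.6% of all genes, and 15 were lower, against 15.3%. After ligation 2 of 29 were higher (background 12.9%) and 20 lower (background 12.7%). In the citrine library 0 of 24 were higher (background 7.22%) and 15 lower (background 8.90%). The member higher in both tdTomato libraries was Col4a2, at 165 CPM in fibroblast-like and 353 CPM in pericyte-like undamaged cells, and 264 and 602 CPM after ligation. Its partner Col4a1 was also higher, by 1.56 and 1.97 times, and stayed under 2-fold. Col5a3 was at 115 and 134 CPM undamaged, and at 90.1 and 131 CPM after ligation, the only fibrillar member of those compared with a higher level in pericyte-like cells of both libraries. Its undamaged pericyte-like interval, 97.2 to 181 CPM on 43 UMIs, holds the fibroblast-like level. Col18a1 was the other member called after ligation, at 16.7 CPM in fibroblast-like and 49.9 CPM in pericyte-like cells, with 125 UMIs in the latter. Col1a1 in pericyte-like cells was 0.186 and 0.147 times, and Col8a1 0.0599 and 0.0798 times, its fibroblast-like level.

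Col25a1, a transmembrane collagen, was seen mostly in pericyte-like cells but had too few UMIs for the comparison. It was at 31.2 CPM there (10 UMIs) in undamaged tdTomato, against 0 UMIs in the fibroblast-like cells, where 3 UMIs would be 0.330 CPM. It was at 5.19 against 0.0688 CPM after ligation and at 6.49 against 0.0838 CPM in citrine. In the single citrine hearts, Col4a2 was higher in pericyte-like than in fibroblast-like cells in 3 of 3, at 344, 329 and 343 against 238, 256 and 277 CPM. Col4a1 was higher in 1 of 3. Col5a3 was higher in 0 of 3, at 0, 109 and 28.6 against 134, 150 and 143 CPM. The pericyte-like cells of these hearts numbered 14, 140 and 10.

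Fibroblast RNA in the mural classes was measured beside these values. Summed fibroblast markers in pericyte-like cells reached 8.72%, 11.7% and 38.5% of their fibroblast-like level in the undamaged, ligated and citrine libraries. Col1a1 stood at 18.6%, 14.7% and 38.8% of its fibroblast-like level, Col6a1 at 61.3%, 73.9% and 64.5%, and Col4a2 at 214%, 228% and 138%. Without cells of over 1 hashtag the citrine values were 25.2% for the markers, 23.6% for Col1a1 and 131% for Col4a2. So Col1a1 was close to the markers in the citrine library, and the part of free or mixed RNA in it was not tested. The levels of Col4a1 (156% and 197%) and Col4a2 above 100% in tdTomato pericyte-like cells lay far over those of the markers. Endothelial cells, which also make type IV, were looked for too. Their summed markers in pericyte-like cells were 1431, 1175 and 1882 CPM in the 3 libraries, against 35.4, 27.9 and 27.3 CPM in fibroblast-like cells. Of the 8 endothelial markers, Cdh5, Kdr, Tie1 and Cldn5 were at 0 in undamaged pericyte-like cells and Cldn5 after ligation. Col4a2 was at 468 CPM in the 13 endothelial-like cells, on 12 UMIs, and the part of endothelial RNA was not tested.

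Smooth-muscle-like cells had the lowest levels. In undamaged tdTomato 22 of 24 members were lower than in fibroblast-like cells (background 22.6%) and 0 higher (background 10.7%). After ligation 24 of 27 were lower (background 19.3%) and 0 higher (background 10.9%). Those between were Col27a1 (0.5 times) and Col4a2 (0.697 times) in the first, and Col4a1 (0.568 times), Col4a2 (0.687 times) and Col18a1 (1.17 times) in the second. Col3a1 was at 46.0 and 265 CPM and Col1a1 at 17.9 and 94.9 CPM, which is 1.81% and 4.56% of the fibroblast-like level. The fibroblast markers were at 2.27% and 5.58%. The order of Col1a1 (fibroblast-like, pericyte-like, smooth-muscle-like) was found for 10 members in undamaged and 14 in ligated tdTomato cells, while 14 and 11 had under 20 UMIs in the mural classes together and were not ordered. Col5a3, Col4a1 and Col4a2 were highest in pericyte-like cells in both libraries, for Col5a3 within counting error in undamaged cells. Col18a1 was highest there after ligation. Col4a5 was lowest in pericyte-like cells after ligation, at 6.79 CPM (17 UMIs) against 21.6 CPM (20 UMIs) in smooth-muscle-like cells.

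Ligated and undamaged tdTomato fibroblast-like cells were compared member by member. Of 29 members, 4 were over 2-fold higher after ligation, against 3.04% of 12325 genes, and 1 was lower, against 3.92%. The median log2 ratio over the members was 0.36, and over all genes -0.05. Col8a2 went from 4.40 to 18.5 CPM, a ratio of 4.20 (3.01 to 6.02). Col12a1 went from 14.9 to 42.4 CPM, a ratio of 2.85 (2.36 to 3.46), and Col16a1 from 24 to 57.4 CPM, a ratio of 2.39 (2.06 to 2.79). Col1a1 went from 990 to 2079 CPM, a ratio of 2.1 (2.05 to 2.15). The member called lower was Col4a3, from 42.6 to 16 CPM, a ratio of 0.375 (0.317 to 0.442). Several lay just inside 2-fold: Col5a2 at 1.97, Col27a1 and Col11a1 at 1.98 and Col3a1 at 1.90. Col9a2, at 2.01 on the counts, was not called because the log2 ratio used 2 shared prior UMIs and came to 0.99. Centred on the median of all genes, 8 members were higher in place of 4.

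By class, the 8 fibrillar members compared had a median log2 ratio of 0.94, with 7 above 0 and Col5a3 as the exception at 0.787 times. The 4 FACIT members had a median of 1.12, all above 0. The 8 network members had a median of -0.05, with 4 above 0. Type IV chains went both ways: Col4a2 was 1.6 times (1.5 to 1.70), Col4a1 1.04 times (0.987 to 1.09), Col4a4 0.604 times (0.554 to 0.659) and Col4a6 0.689 times (0.519 to 0.915) its undamaged level. The 5 beaded members had a median of -0.14, with Col6a1 at 0.744 (0.720 to 0.767) and Col6a2 at 0.836 times, and Col6a3 at 1.24 times. Col15a1 was 0.913 times (0.883 to 0.944). In these cells the summed fibroblast markers were lower after ligation, at 42240 against 84687 CPM, and their part in the ratios was not tested. The citrine hearts gave the spread between single undamaged hearts, which differ from the tdTomato pools in reporter, depth and barcode set. For 19 of 29 members the ligation ratio, taken either way, was larger than the ratio of the highest to the lowest of those 3 hearts. Col4a5 was a near tie, at 1.11 against 1.11. The same share over all genes was not counted, so 19 of 29 is no result particular to collagens. The ligation ratio was 4.20 against 1.06 for Col8a2, 2.1 against 1.08 for Col1a1 and 2.67 against 1.52 for Col4a3. For Col14a1 (1.28 against 1.5), Col15a1 (1.10 against 1.26) and Col11a1 (1.98 against 2.60) it was smaller.

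**Figure D2:**
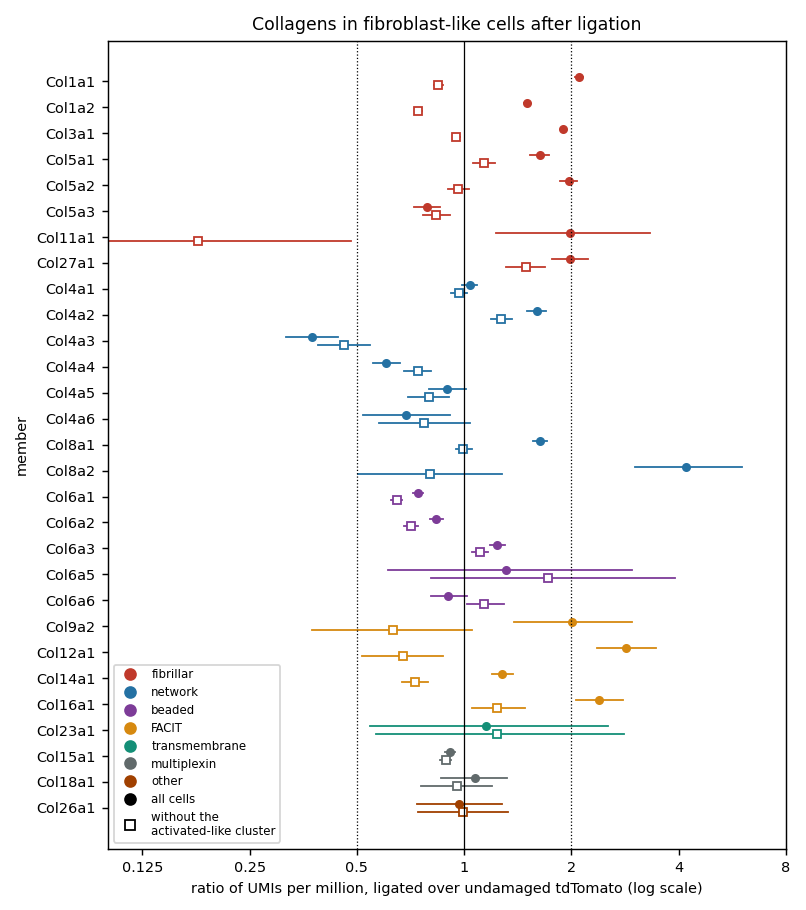
Ratio of CPM in ligated over undamaged tdTomato fibroblast-like cells (horizontal axis, logarithmic) for the 29 members compared (vertical axis), filled for all cells and open without the activated-like cluster, with exact 95% intervals for counting error. Col8a2, Col12a1, Col16a1 and Col1a1 lie right of the dotted 2-fold line when all cells are used, and no open symbol does.

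The members called higher after ligation owed most of their UMIs to 1 cluster, which held 60.6% of those of Col16a1, 69.5% of Col1a1, 82.1% of Col12a1 and 85.5% of Col8a2. The activated-like cluster, named from Postn, Cthrc1, Tnc and 5 other markers that hold no collagen, had 411 of 3136 ligated fibroblast-like cells (13.1%, 11.9 to 14.3). It held 24.2% of their UMIs and 55.7% of their collagen UMIs. Collagen was 2.82% of the UMIs of the cluster and 0.716% of those of the other fibroblast-like cells. Its cells also had more RNA counted, with a median of 7802 UMIs against 3822. Without this cluster, 0 of 29 members were over 2-fold higher than in undamaged cells, against 2.05% of all genes, and 2 were lower, against 4.62%. The median log2 ratio was then -0.17. Col1a1 was at 836 CPM in the other ligated cells, 0.845 times (0.821 to 0.870) the undamaged 990 CPM. Col12a1 was at 9.99 CPM (0.672 times, 0.518 to 0.871) and Col8a2 at 3.54 CPM (0.804 times, 0.504 to 1.28). Col16a1 stayed higher, at 1.24 times (1.05 to 1.48). The members called lower were Col4a3, at 0.460 times (0.388 to 0.545), and Col11a1, at 0.179 times with 5 UMIs. Of the 29 intervals, which cover counting error only, 6 lay above 1 and 13 below 1. The same share over all genes was not counted, so this tally is no result particular to collagens. This comparison was chosen after the data had been seen. Cells were removed from the ligated side only, and undamaged clusters with Postn at 1389 and 914 CPM stayed in. The latter, named Wif1-like from its markers, held 43.5% of the 23 undamaged Col11a1 UMIs, and no ligated cluster took that name. The part of this 1-sided removal in the lower ratios was not tested.

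Within the ligated library, 14 of 29 members were over 2-fold higher in the activated-like cluster than in the other fibroblast-like cells, against 6.94% of all genes, and 4 were lower, against 7.95%. The cluster was made from the same cells, so these are descriptions. All 4 FACIT members compared and 7 of 8 fibrillar members were among the higher. Col12a1 was at 144 CPM against 9.99 CPM, a ratio of 14.4 (11.7 to 17.9), and Col8a2 at 65.3 against 3.54 CPM, a ratio of 18.5 (13.1 to 26.6). Col1a1 was at 5969 against 836 CPM, a ratio of 7.14 (6.96 to 7.32). Col3a1 was at 9622 against 1883 CPM and Col5a2 at 887 against 167 CPM. Of the Col11a1 UMIs, 93.2% lay in the cluster (68 of 73), through which alone it reached the minimum of 20 UMIs. Col5a3 was the fibrillar exception, at 72.7 against 95.7 CPM. The lower members were Col4a3 (4.55 against 19.6 CPM), Col4a4 (21 against 88.1 CPM), Col6a6 (8.24 against 61.5 CPM) and Col6a5, with 0 UMIs against 23. Of these 23, 91.3% lay in 1 other cluster, and 0.223% of the ligated fibroblast-like cells had any Col6a5 UMI. For Col6a5 the contrast thus rests on few cells, and it does not describe a whole cluster. Type VI chains other than these were moderately higher, from 1.48 times for Col6a3 to 1.73 times for Col6a2.

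In the PDGFRa library an activated-like cluster of 1464 of 12469 cells (11.7%, 11.2 to 12.3) held 37.8% of the collagen UMIs. Collagen was 4.51% of its UMIs and 2.07% of the rest. Of 39 members, 15 were over 2-fold higher there than in the other fibroblast-like cells, against 6.37% of all genes, and 4 were lower, against 11.9%. The lower 4 were again Col4a3 (4.28 against 36.8 CPM), Col4a4 (14.8 against 116 CPM), Col6a5 (0.771 against 8.93 CPM) and Col6a6 (3.97 against 53.5 CPM). Here too 1 other cluster, of 910 cells, held 59.6% of the Col6a5 UMIs. Higher members included Col12a1, at 211 against 26.2 CPM, Col11a1, at 78.2 against 11.6 CPM, and Col8a2, at 54.6 against 13.9 CPM. Cartilage collagen Col2a1 had 21 of its 24 UMIs in this cluster. With 30 UMIs over all 4 libraries, it was a member only through this cluster. Col2a1, Col9a1 and Col22a1, all among the 15, had 3, 16 and 9 UMIs in the other cells. They reached the minimum of 20 for the comparison only through the cluster where they were high. The rest of that library held 3 more collagen-rich clusters, of 1135, 910 and 292 cells, at 3.49%, 4.63% and 3.31% collagen. Their Postn levels were 3549, 4389 and 3889 CPM, against 6494 CPM in the activated-like cluster. Col3a1 was higher in the cluster of 910 cells than in the activated-like one, at 18157 against 13528 CPM. The 15 higher and 4 lower members thus contrast 1 cluster with a rest that held these 3. Of the fibroblast-like cells of hashtags 1 to 4, 17.8%, 20.4%, 0% and 0.141% lay in the activated-like cluster, while the rest pooled all hearts. The contrast is thus also one between hearts, and cluster and heart were not separated. At Leiden resolution 0.5 the activated-like cluster had 3217 cells, so its size depended on the clustering. In the citrine library a cluster of 42 cycling cells, with Top2a among its leading genes, carried the activated markers at 1.15% collagen, within the range of the other clusters, 0.658% to 1.39%. Its Postn, at 1127 CPM, was below the 1503 CPM of a Wif1-like cluster. It met the marker rule for the activated name, but cycling clusters were not counted as activated-like. No cluster of the undamaged tdTomato library met that rule, and its fibroblast-like clusters ranged from 0.538% (the Wif1-like cluster) to 0.944%.

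**Figure D3:**
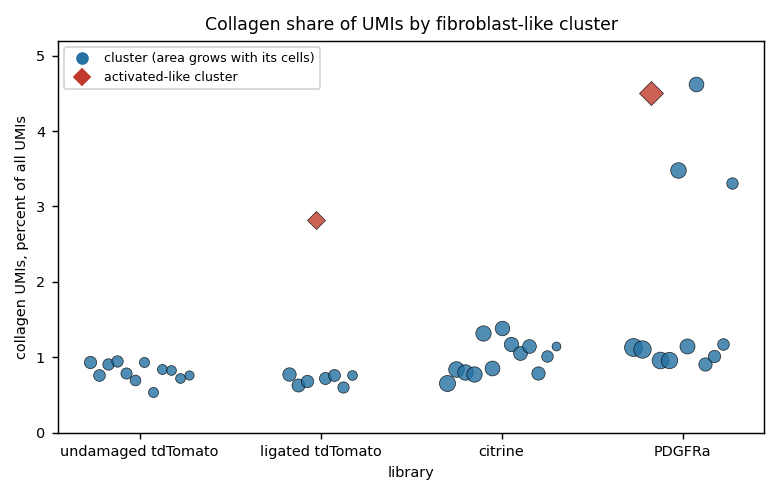
Collagen UMIs as a percent of all UMIs (vertical axis) in each fibroblast-like cluster of the 4 libraries (horizontal axis), with red diamonds for activated-like clusters. The activated-like cluster of the ligated tdTomato library sits at 2.82%, above its 7 other clusters, and 4 PDGFRa clusters lie above 3%.

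Cell by cell, the rise after ligation was in the upper tail, while the 10th percentile and the median were lower. The median fibroblast-like cell had 0.779% collagen UMIs in undamaged and 0.670% in ligated tdTomato. The 10th percentile was 0.415% and 0.332%, while the 90th percentile was 1.30% and 2.04%. The tenth of cells with the most collagen UMIs held 22.7% of them in undamaged and 53.6% in ligated cells. With each cell weighted equally in place of summed UMIs, 1 member in place of 4 was over 2-fold higher after ligation, and the median log2 ratio was 0.16.

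In pericyte-like cells 3 of 18 members were over 2-fold higher after ligation, against 7.41% of all genes, and 0 were lower, against 4.48%. Col18a1 went from 1 UMI (3.12 CPM) to 125 UMIs (49.9 CPM), a ratio of 16 (2.82 to 636). Col5a1 went from 21.9 to 73.9 CPM, a ratio of 3.38 (1.61 to 8.52), and Col8a1 from 18.7 to 40.8 CPM, a ratio of 2.17 (0.965 to 6.06). With a minimum of 2000 UMIs per cell the log2 ratio of Col8a1 was -0.29. Those higher by less than 2-fold included Col1a1 at 1.66 (1.27 to 2.20), Col3a1 at 1.59 (1.37 to 1.85), Col4a1 at 1.31 (1.10 to 1.58) and Col4a2 at 1.70 (1.41 to 2.08). Col4a4 was at 0.689 times (0.414 to 1.21). Col6a1 was 0.897 times (0.757 to 1.07) and Col5a3 0.978 times its undamaged level, both with intervals that hold 1. With coarser clusters (Leiden resolution 0.5), which joined undamaged pericyte-like and smooth-muscle-like cells in 1 cluster of 343, 12 members were higher.

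In smooth-muscle-like cells 7 of 15 members were over 2-fold higher after ligation, against 6.18% of all genes, and 0 were lower, against 3.82%. Col3a1 went from 46.0 to 265 CPM, a ratio of 5.76 (3.57 to 9.88), and Col1a1 from 17.9 to 94.9 CPM, a ratio of 5.30 (2.47 to 13.6). Col5a1 (1 and 23 UMIs), Col14a1 (12.8 to 60.4 CPM), Col6a3 (15.3 to 50.7 CPM), Col15a1 (30.7 to 70.1 CPM) and Col5a2 (17.9 to 37.7 CPM) made up the rest. Col1a2 was higher by 1.72 times (1.34 to 2.25) and Col4a1 by 1.97 times (1.33 to 3.01). The counts are small, with 293 and 1460 collagen UMIs in all. With at least 100 UMIs per gene 1 member was higher. Summed fibroblast markers were 2.27% of their fibroblast-like level in undamaged and 5.58% in ligated cells, and their part in the result was not tested.

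Chains that combine in 1 protein did not keep fixed ratios. Type I is usually built of a pair of Col1a1 chains and a single Col1a2 chain. The Col1a1 to Col1a2 ratio of UMIs was 0.668 (0.650 to 0.686) in undamaged and 0.935 (0.920 to 0.949) in ligated tdTomato fibroblast-like cells. It was 0.694 in citrine and 0.996 in PDGFRa cells. In smooth-muscle-like cells it was 0.0921 (0.0358 to 0.199) and 0.283 (0.221 to 0.360), so that Col1a2 far outnumbered Col1a1. The Col4a1 to Col4a2 ratio was 1.6 (1.5 to 1.71) in undamaged and 1.04 (0.998 to 1.09) in ligated fibroblast-like cells, and 2.50 and 2.06 in the citrine and PDGFRa libraries. Within each library that held both classes, the Col5a3 to Col5a1 ratio was lower in fibroblast-like than in pericyte-like cells. It was 0.764 (0.704 to 0.829) against 6.14 (2.74 to 16.2) in undamaged tdTomato, and 0.370 (0.347 to 0.394) against 1.78 (1.48 to 2.14) after ligation. In citrine it was 0.495 against 0.986 (0.777 to 1.25). The classes overlapped between libraries, as fibroblast-like cells of PDGFRa hashtags 3 and 4 were at 0.930 and 0.893. Col8a1 outnumbered Col8a2 71.0 to 1 (52.0 to 99.7) in undamaged and 27.6 to 1 (24.4 to 31.3) in ligated fibroblast-like cells. The Col6a3 to Col6a2 ratio was 0.565 (0.536 to 0.594) and 0.837 (0.805 to 0.871). These are ratios of counted molecules and depend also on how well each 3' end is captured, which cancels only between samples of 1 chemistry, and tdTomato and hashed libraries may differ in it.

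**Figure D4:**
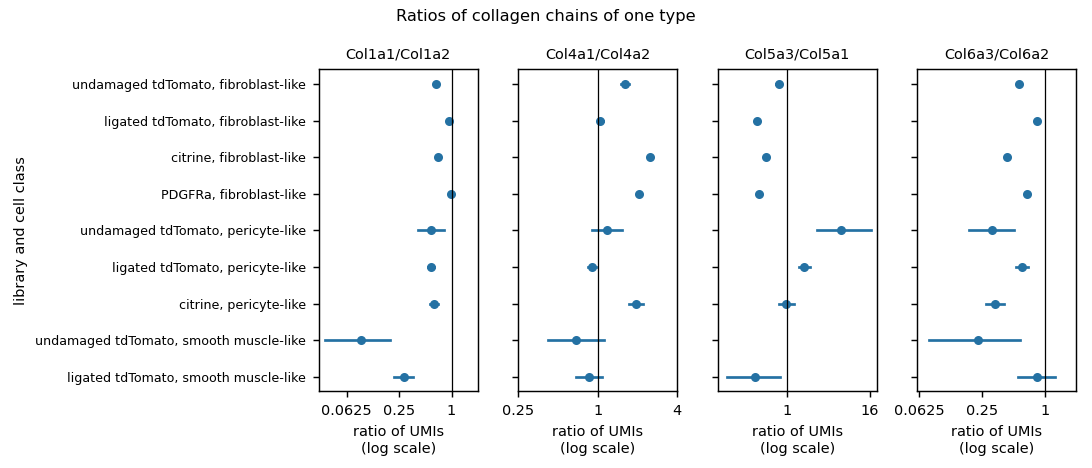
Ratio of UMIs of chain pairs (horizontal axes, logarithmic) by library and cell class (vertical axis), with exact 95% intervals for counting error. Col5a3 to Col5a1 lies above 1 in both tdTomato pericyte-like populations and below 1 in the 4 fibroblast-like ones, and Col1a1 to Col1a2 is lowest in smooth-muscle-like cells.

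Hashtags gave single hearts. In the 3 citrine hearts collagen was 0.983%, 0.918% and 0.983% of the UMIs of fibroblast-like cells, 0.961% ± 0.0371 (SD, n = 3). Col1a1 was at 1211, 1124 and 1153 CPM, and Col3a1 at 2447, 1982 and 2275 CPM. Col6a1 varied least among the abundant members, at 579, 587 and 596 CPM, and Col8a1 more, at 338, 405 and 491 CPM. Col13a1 was at 2.57 CPM in the first heart and at 0.0475 and 0.435 CPM in the others. The highest heart was 1.08 times the lowest for Col1a1 and 1.23 times for Col3a1.

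In the PDGFRa library the labels do not give the condition of a hashtag, so its hearts are given one by one. Collagen was 3.16%, 3.38%, 0.992% and 1.07% of UMIs for hashtags 1 to 4, in 3313, 3151, 2132 and 2122 fibroblast-like cells. Col1a1 was at 6757, 7511, 1128 and 1264 CPM, and Col3a1 at 10726, 11675, 2455 and 2679 CPM. Col12a1 was at 71.7, 105, 7.65 and 7.38 CPM, Col8a2 at 28, 34.5, 3.58 and 3.08 CPM, and Col11a1 at 24.1, 49.8, 0.358 and 0.716 CPM. For each of these genes hashtags 1 and 2 were high and 3 and 4 low. Col4a3 was at 21.8, 19.5, 48.0 and 59.9 CPM, Col4a4 at 65.6, 62.6, 159 and 180 CPM, and Col5a3 at 136, 128, 246 and 244 CPM, the other way round. Col4a1, at 827, 724, 650 and 807 CPM, and Col6a1, at 816, 750, 640 and 670 CPM, varied little. The Col1a1 to Col1a2 ratio was 1.00, 1.04, 0.739 and 0.729. Postn was at 3305, 3962, 177 and 238 CPM, and 17.8%, 20.4%, 0% and 0.141% of the cells lay in the activated-like cluster.

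**Figure D5:**
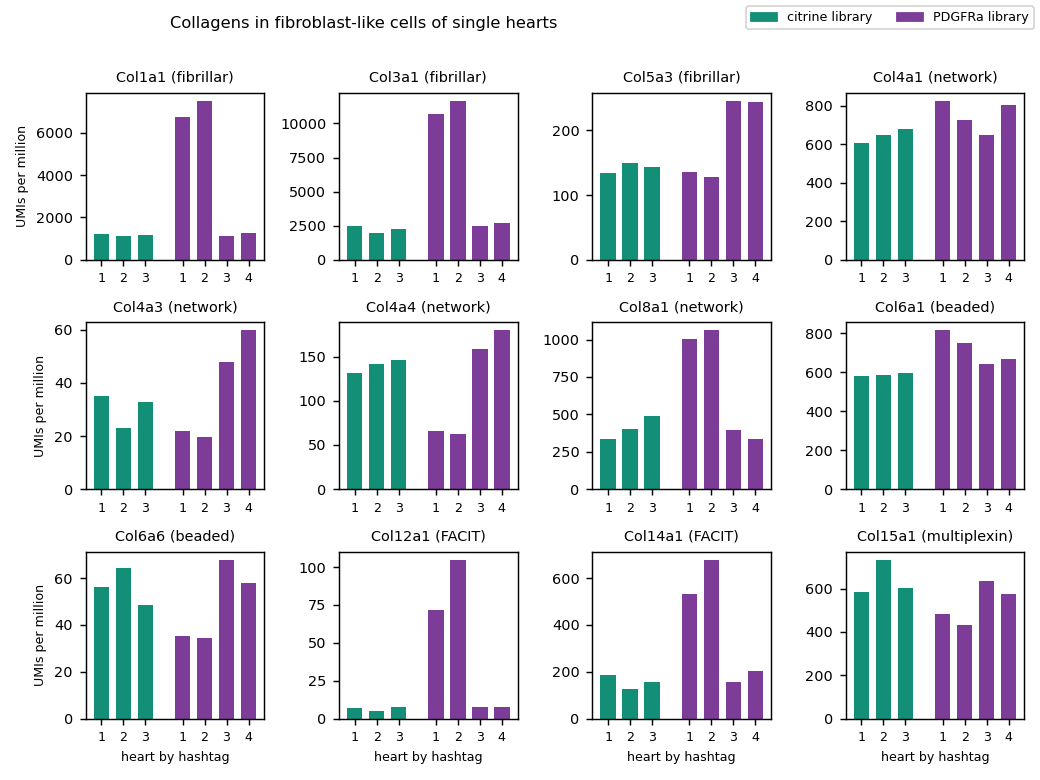
CPM (vertical axes, from 0) of 12 members in the fibroblast-like cells of single hearts, by hashtag, for 3 citrine hearts (green) and 4 PDGFRa hearts (purple). Col1a1, Col3a1, Col12a1 and Col8a1 are high in hearts 1 and 2 of the PDGFRa library, Col4a3 and Col4a4 are low there, and the citrine hearts differ less.

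Of 54 compared genes that make, finish or bind collagen, 3 were over 2-fold higher after ligation in fibroblast-like cells, against 3.04% of all genes, and 1 was lower, against 3.92%. Among 20 genes of chain modification and folding 1 was higher after ligation, P4ha3, a prolyl hydroxylase subunit, from 4 to 99 UMIs (0.440 to 6.81 CPM). Serpinh1, the collagen chaperone and the highest of that list, was at 1567 and 1789 CPM. Among 5 crosslinking genes Lox was higher, from 20.7 to 124 CPM, a ratio of 5.99 (5.15 to 6.99), and Loxl1, the highest, was at 351 and 482 CPM. Among 8 fibril surface genes Fn1 was higher, from 78.4 to 547 CPM, a ratio of 6.97 (6.46 to 7.54). Dcn, the highest there, was at 26854 and 17778 CPM. None of the 10 genes of export and propeptide removal was called, with Pcolce at 1253 and 1153 CPM, and none of 3 collagenases, with Mmp2 at 679 and 637 CPM. Of 8 receptor genes Itga2 was lower, on 16 and 11 UMIs, and Itgb1 was at 205 and 210 CPM. In pericyte-like cells 7 of 44 compared genes were higher after ligation, against 7.41% of all genes, and 0 were lower, against 4.48%. They included Loxl2, from 68.7 to 165 CPM (2.40 times, 1.56 to 3.87), Bgn, a small proteoglycan, from 775 to 1969 CPM (2.54 times, 2.24 to 2.90), and Bmp1, which trims fibrillar procollagens, from 12.5 to 41.2 CPM (3.29 times, 1.25 to 12.3). The others were Adamts2, Ctsk, P4ha2 and Crtap, of which the last 3 had 3 undamaged UMIs each. The intervals of P4ha2 (0.776 to 11.9) and Crtap (0.849 to 13) hold 1. Fn1 is also a marker of the activated-like list.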

How the data were processed

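The deposited matrices hold raw UMI counts for every gene in every barcode, which the authors produced using Cell Ranger (version 3.0.2 per the file headers of the citrine and PDGFRa libraries) on a modified mm10 reference, with the Chromium 3' kit v2, per the labels' protocols; Seurat 2.1 is named in the submitters' processing notes. Barcodes passed with 500 or more genes, 1000 or more UMIs and a mitochondrial share up to 10%. Clustering ran per library without collagen, most collagen pathway, mitochondrial, ribosomal and reporter genes (scanpy 1.11.5, leidenalg 0.10.2: 2000 variable genes, 30 components, 20 neighbours, resolution 1) and clusters were named from fixed markers. The pathway genes Dcn, Lum, Dpt and Fn1 are also markers and were not left out. Xist and genes of the Y chromosome were left out as well. Cells of cycling clusters were classed singly, from the class markers each cell had UMIs of. A subset name needed 60% of its markers over 2-fold and no more markers of another subset among the 10 leading genes. Cycling clusters that met this rule were not counted in the subset. Hashtags were called by a 2-component Gaussian mixture on log counts (scikit-learn 1.9.0), and a cell with 1 positive tag was assigned. Scrublet called 3, 39, 0 and 1 cells as doublets and is not relied on in any library. In the hashed libraries 1818 and 1021 cells had over 1 hashtag, and they were kept outside the single hearts.

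UMIs were summed per class. Genes with at least 20 UMIs, and at least 3 expected in the smaller sum, entered each comparison. The last limit, the prior UMIs below, the condition on leading genes and the limit of 20 mural UMIs for an order of classes were added after the data had been seen. Log2 ratios used 2 prior UMIs shared in proportion to the totals, and a call needed 2-fold. Ratios carry exact conditional binomial intervals and shares Clopper-Pearson intervals. No test was made between single libraries. The procedure was tested on simulated data (numpy 2.4.6, scipy 1.17.1, pandas 2.3.3, matplotlib 3.10.9, Python 3.11.15). Named were members past 2-fold, the 3 highest of each class, partner chains, members ordered unlike Col1a1, and pathway genes past 2-fold or highest in their list. Members and lists were chosen with earlier results of these data known.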

Additional observations from a re-analysis of the deposited data

Results flagged for a closer look

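Some members moved in opposite directions in different cell classes after ligation, and the difference between the classes was not tested. Col6a1, a type VI chain, was 0.744 times its undamaged level in tdTomato fibroblast-like cells and 1.85 times in smooth-muscle-like cells. Col15a1, a multiplexin, was 0.913 times its undamaged level in fibroblast-like cells, 1.6 times in pericyte-like cells and 2.28 times in smooth-muscle-like cells. The Col6a1 interval in pericyte-like cells held 1. Undamaged smooth-muscle-like values rest on 23 UMIs for Col6a1 and 12 UMIs for Col15a1. Summed fibroblast markers in smooth-muscle-like cells were 2.27% of their fibroblast-like level undamaged and 5.58% after ligation, and their part was not tested. Each class is 1 pool of 3 hearts per condition.

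The 98 unnamed PDGFRa cells, which no comparison used, had 238 CPM of the type VI chain Col6a5 against 7.15 CPM in the fibroblast-like cells of that library, a ratio of 33.3 (29.7 to 37.3). These cells had a median of 19081 UMIs, 3.18% collagen UMIs, and Wt1, an epicardial marker, at 162 CPM against 1.04 CPM. Their cluster was also a cycling one, with Mki67 at 105 against 0.632 CPM. At resolution 2 there was an unnamed cluster of 66 cells with Wt1 among its leading genes, and a cycling fibroblast-like one of 30. Whether the 98 cells are 1 population was not tested. Col24a1 was at 23.3 against 2.1 CPM there.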

How the results depend on the processing

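No paired analysis was possible because, between libraries, each condition is 1 library and pooled hearts carry no number; the classes within single citrine hearts are given side by side in the text, with no paired fit. Without doublets means, in the tdTomato libraries, without the 3 and 39 cells that Scrublet called. For ligated against undamaged fibroblast-like cells (median log2 ratio 0.36, 4 members higher, 1 lower), 5 were lower with no filter on UMIs per gene, 8 were higher when centred on the median of all genes, 2 were lower with all kept cells, and with each cell weighted equally the median was 0.16 and 1 was higher. Without the activated-like cluster, an alternative chosen after the data had been seen, the median was -0.17, 0 were higher and 2 lower, and the log2 ratios of Col1a1, Col8a2 and Col12a1 were -0.24, -0.31 and -0.57, against 1.07, 2.05 and 1.51 with it. For pericyte-like cells (0.67, 3 higher, 0 lower), the median was 0.56 at 5% mitochondrial UMIs, 0.24 at 2000 UMIs per cell (Col8a1 then at -0.29), 0.52 with equal cells, and 1.23 with 12 higher and 1 lower at resolution 0.5, where undamaged pericyte-like and smooth-muscle-like cells shared a cluster. With no filter 5 were higher and 4 lower. For smooth-muscle-like cells (0.97, 7 higher, 0 lower), the median was 1.66 at 5% mitochondrial UMIs, 0.83 without doublets, 0.77 with 1 lower with no filter, and 0.59 with equal cells, and 1 was higher at 100 UMIs per gene. Undamaged smooth-muscle-like cells had no cluster of their own at resolution 0.5, so those values were not obtained. For pericyte-like against fibroblast-like cells, the undamaged median (-1.67, 1 higher, 15 lower) was -0.95 with 2 higher and 9 lower at 2000 UMIs, -2.49 with 0 higher at resolution 0.5, and -2.18 with 0 higher with equal cells. The ligated median (-1.72) was -1.38 at 2000 UMIs, -1.83 without doublets and -1.98 with equal cells. The citrine median (-1.05, 15 lower) was -0.82 with 8 lower at 5% mitochondrial UMIs, -1.57 without doublets and -1.45 with equal cells. For smooth-muscle-like against fibroblast-like cells, the undamaged median (-3.62) was -3.21 at 5% and -3.85 at 2000 UMIs, and the ligated one (-2.73) was -2.53, -2.83, -3.01 without doublets and -3.14 with equal cells. The collagen share of undamaged pericyte-like cells (0.326%) was 0.184% at resolution 0.5 and 0.288% with equal cells. In ligated cells, the fibroblast-like share (1.22%) was 0.716% without the activated-like cluster and 0.973% with equal cells, the pericyte-like one (0.456%) 0.521% at 2000 UMIs, 0.445% without doublets and 0.369% with equal cells, and the smooth-muscle-like one (0.157%) 0.215% at 5%, 0.170% at 2000 UMIs, 0.127% without doublets and 0.115% with equal cells. In citrine cells, the fibroblast-like share (1.00%) was 0.984% at 5%, 0.945% without doublets and 0.925% with equal cells, and the pericyte-like one (0.543%) 0.566%, 0.567% at 2000 UMIs, 0.365% and 0.369%. The PDGFRa share (2.61%) was 2.63% at 5%, 2.62% and 2.61% at resolutions 0.5 and 2, 2.60% without doublets, 2.07% without the activated-like cluster and 1.94% with equal cells. The citrine heart mean ranged from 0.951% to 0.983% with 1 heart left out. The causes were not tested. Depth limits most members in the undamaged mural classes, which held 1043 and 293 collagen UMIs.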

Other observations

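The 4 PDGFRa hearts fell into separate clusters of values for many collagens. Collagen shares of 3.16% and 3.38% for hashtags 1 and 2 stood apart from 0.992% and 1.07% for hashtags 3 and 4. Some fibrillar and FACIT members, picked after their values were seen, showed the same, with Col5a2 at 975, 1072, 274 and 307 CPM, Col14a1 at 531, 679, 158 and 201 CPM and Col16a1 at 114, 127, 33.2 and 37.5 CPM. Col9a2 was at 9.43, 9.01, 0.858 and 1.07 CPM and Col24a1 at 2.87, 2.82, 0.143 and 0.143 CPM. Col5a1, at 460, 505, 265 and 273 CPM, differed less. The other way round were Col5a3 at 136, 128, 246 and 244 CPM, Col6a6 at 35.3, 34.6, 67.9 and 58.0 CPM, Col15a1 at 482, 433, 635 and 573 CPM and Col4a6 at 6.22, 6.84, 9.80 and 11 CPM. The labels tie no hashtag to a condition, and no comparison was drawn from this split.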
